A study of Rattus norvegicus with 8 samples.

Results

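The lens crystallins and lens membrane proteins are represented here by 8 genes, Cryaa, Cryab, Cryba4, Crybb2, Crybb3, Crygd, Mip and Lim2. They were found as every probe set that the platform annotation gives a single gene symbol out of these 8, which yielded 13 probe sets of the 8799 on the array. A probe set is a group of short oligonucleotides read together as 1 value, and some probe sets carry the symbols of more than 1 gene. A single probe set of each gene, 8 in all, was bright enough to enter the statistical test, and the other 5 are described by their values alone.

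The arrays held RNA from rat embryos at E12.5, in groups of 2 arrays each: Pax6 homozygous forebrain, wild-type forebrain, Pax6 homozygous hindbrain and wild-type hindbrain. The embryos called Pax6 homozygous carry a Pax6 allele that the labels do not name, and no further treatment or transgene is given for either genotype. Pax6 is a transcription factor needed for lens and eye development, and the series asked which genes act downstream of it in the early brain. The tissue was divided at the isthmus, so that midbrain and the eye and nose primordia went with the forebrain part, and the pharyngeal arches with the hindbrain part. Arrays of a group are labelled 1st and 2nd, with no word on whether they came from separate embryos or litters, so the p-values reflect the scatter among these arrays alone, and that scatter may be technical.

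Crystallins are the soluble proteins that fill lens cells and give the lens its refractive power. The alpha-crystallins, Cryaa and Cryab, are small heat shock proteins that keep other proteins from aggregating, and Cryab is also made in heart, muscle and other tissues. The beta- and gamma-crystallins are structural proteins that accumulate as lens fibre cells differentiate, and Mip and Lim2 are the main membrane proteins of those fibre cells. In rodents alpha-crystallin transcripts appear early in lens formation, while gamma-crystallins mark fibre differentiation.

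The promoters of Cryaa and of the neighbouring genes Crybb3 and Crybb2 are shown because Cryaa and Crybb3 had the clearest group pattern, whereas Crybb2, the next protein-coding gene beyond Crybb3 on the chromosome in the RefSeq table of GRCr8, did not share it. Each runs 5′ to 3′ from 250 bases before to 50 bases after the annotated start, taken from RefSeq on build GRCr8, at chr20:9784661-9784960 on the plus strand for Cryaa (the first of 2 windows listed for that gene), chr12:49217304-49217603 on the plus strand for Crybb3 and chr12:49229942-49230241 on the plus strand for Crybb2. Capitals mark matches to 1 of the motifs searched.
Cryaa: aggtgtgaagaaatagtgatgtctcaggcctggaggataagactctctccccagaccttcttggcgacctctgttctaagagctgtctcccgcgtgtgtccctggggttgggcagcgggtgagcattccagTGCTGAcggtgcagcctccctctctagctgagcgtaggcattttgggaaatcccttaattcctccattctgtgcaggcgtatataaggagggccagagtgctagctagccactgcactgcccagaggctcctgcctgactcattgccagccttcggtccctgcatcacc
Crybb3: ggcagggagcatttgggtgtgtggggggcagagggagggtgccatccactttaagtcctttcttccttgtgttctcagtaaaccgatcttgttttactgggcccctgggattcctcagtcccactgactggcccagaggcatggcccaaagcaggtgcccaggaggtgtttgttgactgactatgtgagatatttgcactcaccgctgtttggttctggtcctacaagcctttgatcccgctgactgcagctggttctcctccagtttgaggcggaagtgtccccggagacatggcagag
Crybb2: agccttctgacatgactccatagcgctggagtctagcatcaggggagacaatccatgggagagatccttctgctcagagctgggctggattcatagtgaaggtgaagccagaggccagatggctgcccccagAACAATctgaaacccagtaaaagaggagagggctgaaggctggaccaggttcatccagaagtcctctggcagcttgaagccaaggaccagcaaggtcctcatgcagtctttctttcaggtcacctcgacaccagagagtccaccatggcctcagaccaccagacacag

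A set of 5 motifs was searched on both strands of the promoter windows, and no motif overlapped another in the 7 member genes with a window. The core TGCTGA recognised by Maf factors, regulators of crystallin genes, lay at positions -119 to -114 from the start of Cryaa. It was present in 3 of the 7 genes (Cryaa, Cryba4 and Lim2), against 18.6% of 27457 windows of all genes. The Sox core AACAAT was in Crybb2 and Crygd, against 11.6% of all windows, and the TATA box TATAAA was in Mip, at -31 to -26 from its start, against 14.3%. The Pax6 paired-domain core TCACGC (6.84% of all windows) and the heat shock element unit GAANNTTC (8.34%) matched none of the 7. The Crybb3 window held none of the 5 motifs. These are matches of letters, not sites shown to be bound. Near variants of a motif, such as the tatataa in the Cryaa window, were not counted. Cryab had no window in the table.

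Levels are intensities on the linear scale on which they were deposited, and they can be negative. An array's noise level is the size of its 5th percentile, the extent to which intensities dipped below 0, and it ranged from 243 to 619.8. The trimmed mean of each array was close to 2500, so the arrays had been scaled to a common mean. The array labelled 1st had the higher noise level in each of the 4 groups, and 26.3% of the 5881 tested probe sets were higher on the 1st than on the 2nd array in all 4 groups, while 12.6% were higher on the 2nd in all 4. Lhx2, a forebrain homeobox gene, ranged from 7768 to 8692 in the forebrain parts and from 1444 to 1801 in the hindbrain parts, so the parts match their labels in this gene. Pax6 itself read 1243.3 and 926.6 in Pax6 homozygous and 1197.3 and 635.8 in wild-type forebrain, and 1194.2 and 1111.3 in Pax6 homozygous and 826.8 and 531.1 in wild-type hindbrain. With the allele unnamed, this probe set (S74393_s_at) does not check the genotype.

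Of the 13 lens probe sets, 3 were above noise on both Pax6 homozygous forebrain arrays, 4 on both wild-type forebrain arrays, 4 on both Pax6 homozygous hindbrain arrays and 3 on both wild-type hindbrain arrays. Among all 8740 probe sets other than controls the shares were 48.5%, 47.0%, 54.9% and 47.2%. Only the probe sets of Cryaa and Mip (X53052cds_at) were above noise on all 8 arrays, and 5 of the 13 were above noise on none. In tissue of mixed cell types, fewer lens cells and less RNA per lens cell cannot be told apart.

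Cryaa, the alpha-crystallin largely restricted to the lens, was high in the wild-type forebrain part and low elsewhere. Its probe set (U47921_s_at) read 1302.7 and 683.3 in Pax6 homozygous forebrain, against 4919.2 and 5254.2 in wild-type forebrain. The hindbrain arrays read 1188.9 and 894.1 in the Pax6 homozygous group and 1018.3 and 737.4 in the wild-type group. Both wild-type forebrain arrays lay above the other 6, and the other 3 groups overlapped one another. The forebrain means were 993 ± 438 in Pax6 homozygous and 5087 ± 237 in wild-type tissue, and the hindbrain means were 1042 ± 208 in the Pax6 homozygous and 878 ± 199 in the wild-type group (SD, n = 2 arrays each). Wild-type forebrain thus came highest, and the other 3 means did not differ beyond their spread.

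**Figure D1:**
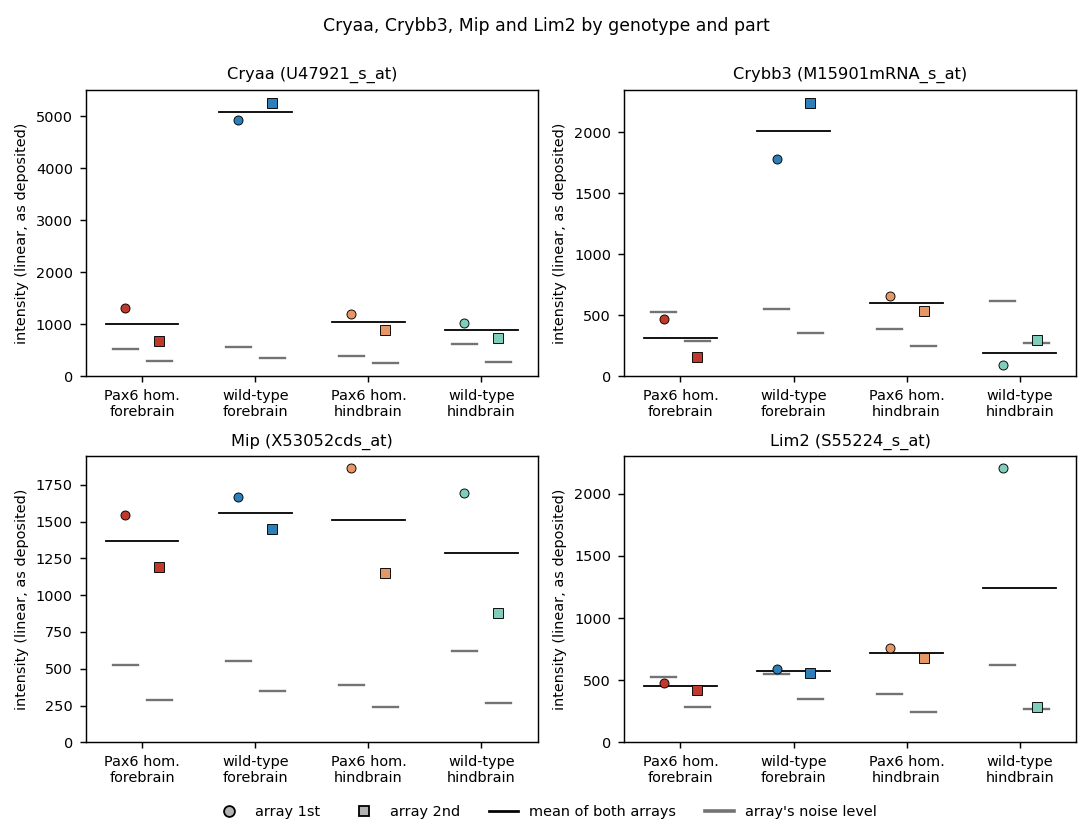
Intensity (linear, as deposited) on each array for Cryaa, Crybb3, Mip and Lim2, by genotype and part. Circles are arrays labelled 1st, squares those labelled 2nd, black lines the mean of both and grey lines each array's noise level. Cryaa and Crybb3 peak in wild-type forebrain at 4919 to 5254 and 1779 to 2240, the Mip probe set X53052cds_at is above noise in all 4 groups, and 1 wild-type hindbrain array of Lim2 stands at 2203.

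In the forebrain comparison the Cryaa intensity was 5.39-fold lower in Pax6 homozygous than in wild-type tissue, a log2 difference of -2.43 ± 0.37 (SE, 95% interval -3.27 to -1.59). With limma the unadjusted p was 0.000126, and the adjusted p over all 5881 probe sets was 0.248, so the difference did not pass the threshold of 0.05. Over the 15 alternative settings it lay between -2.90 and -1.96 and passed in none (adjusted p from 0.0572 to 1). The 1st arrays alone gave -1.92 on the log2 scale and the 2nd arrays alone -2.94, both in the same direction. In hindbrain the log2 difference was 0.25 ± 0.37 (limma, adjusted p = 1, 95% interval -0.59 to 1.09). The forebrain difference minus the hindbrain difference, tested as an interaction, was -2.68 ± 0.52 (limma, unadjusted p = 0.000722, adjusted p = 0.9995).

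The region comparison gave the 1 lens call that passed. Within wild-type embryos Cryaa was 5.87-fold higher in forebrain than in hindbrain, a log2 difference of 2.55 ± 0.37 (95% interval 1.71 to 3.40, limma adjusted p = 0.0160). The 1st arrays gave 2.27 and the 2nd arrays 2.83. The call was lost without any 1 of the 4 wild-type arrays (adjusted p from 0.0650 to 0.113). It was also lost when dim probe sets were not filtered out (0.146), when the prior variance had no trend with intensity (0.0679) and when the floor was raised (0.112), although the log2 difference stayed between 2.32 and 2.79 in all 15 alternatives, of which 8 kept the call (adjusted p from 0.00435 to 0.146 over all 15). Within Pax6 homozygous embryos the difference between forebrain and hindbrain was -0.13 ± 0.37 (limma, adjusted p = 0.998, 95% interval -0.97 to 0.72).

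Cryab, the other alpha-crystallin and a stress-inducible chaperone, showed no group pattern. Its brighter probe set (M55534mRNA_s_at) read 271.9 and 284.8 in Pax6 homozygous forebrain, against 270.6 and 354.2 in wild-type forebrain. The hindbrain values were 264.7 and 304.5 in the Pax6 homozygous group and 374.5 and 238.3 in the wild-type group. These 8 values spanned 1.57-fold, 2 of them exceeded noise, and the groups overlapped within each part. The log2 difference between genotypes was -0.15 ± 0.57 in forebrain and -0.07 ± 0.57 in hindbrain (limma, adjusted p = 1 for both), with 95% intervals of -1.45 to 1.14 and -1.37 to 1.22. The second Cryab probe set (X60351cds_s_at) was negative on 7 arrays and above noise on none.

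Crybb3, a beta-crystallin, was also highest in wild-type forebrain, and it was under the noise level on 3 of the 8 arrays. Its probe set (M15901mRNA_s_at) read 468.8 and 156.2 in Pax6 homozygous forebrain, both under noise, against 1778.9 and 2240.3 in wild-type forebrain, both above it. Hindbrain values were 656.0 and 536.9 in the Pax6 homozygous group, both above noise, and 89.6 and 292.1 in the wild-type group, with 1 of the arrays above noise. The genotypes did not overlap in either part, with the Pax6 homozygous arrays lower in forebrain and higher in hindbrain. The forebrain means were 312.5 ± 221 in Pax6 homozygous and 2009.6 ± 326 in wild-type tissue, and the hindbrain means were 596 ± 84.2 in the Pax6 homozygous and 191 ± 143 in the wild-type group (SD, n = 2 arrays each). Wild-type forebrain stood apart from the other 3 groups, Pax6 homozygous hindbrain came next and lay above both remaining groups, and Pax6 homozygous forebrain and wild-type hindbrain did not differ beyond their spread.

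No Pax6 homozygous forebrain array of Crybb3 exceeded noise. With each of them set at its noise level, the average on the log2 scale was 5.15-fold lower there than in wild-type forebrain. That fold is no lower limit, since the 1st arrays alone differed by 3.79-fold and the interval given next reaches smaller differences. The fitted log2 difference was -2.88 ± 0.71 (95% interval -4.49 to -1.28), and limma gave an unadjusted p of 0.00299 and an adjusted p of 1 (0.0735 to 1 over the alternatives). The 1st arrays gave -1.92 and the 2nd arrays -3.84. In hindbrain the log2 difference was 1.88 ± 0.71 (limma, unadjusted p = 0.0271, adjusted p = 0.989), with 2.87 between the 1st arrays and 0.88 between the 2nd. With the floor raised to the pooled median this hindbrain difference was 0.26, since values under that floor become equal.

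Between parts, Crybb3 in wild-type embryos was higher in forebrain than in hindbrain by 3.63 ± 0.71 on the log2 scale (95% interval 2.02 to 5.23), which missed the threshold (limma, adjusted p = 0.0807). The size of this difference rests in part on the wild-type hindbrain array at 89.6, under its noise level of 619.8. Without that array it was 2.77, and without the other wild-type hindbrain array 4.48. It passed with the floor at the pooled median, at a smaller difference of 2.01 (adjusted p = 0.0146), and with an asinh transform in place of the floor, at 2.75 (adjusted p = 0.0184). In the other 13 of the 15 alternatives it did not pass (adjusted p up to 0.374). In Pax6 homozygous embryos both forebrain arrays of Crybb3 read below both hindbrain arrays. With the forebrain arrays set at their noise level, the averages on the log2 scale differed by 1.53-fold. The fitted log2 difference was -1.13 ± 0.71 (limma, adjusted p = 0.998), and its 95% interval of -2.74 to 0.47 takes in 0. The interaction of genotype and part was -4.76 ± 1.00 (limma, unadjusted p = 0.00114, adjusted p = 0.9995).

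Crybb2, a beta-crystallin encoded beside Crybb3, lay near the noise level. Its tested probe set (X16072_at) read 582.7 and 341.0 in Pax6 homozygous forebrain, against 482.1 and 420.6 in wild-type forebrain. In the hindbrain part it read 347.3 and 357.7 in the Pax6 homozygous group and 585.7 and 165.1 in the wild-type group. The genotypes overlapped in both parts, and 4 of the 8 arrays exceeded noise, among them both Pax6 homozygous forebrain arrays. The log2 difference was -0.01 ± 0.67 in forebrain (95% interval -1.53 to 1.50) and 0.18 ± 0.67 in hindbrain (limma, adjusted p = 1 for both). Of its other probe sets, X83671cds_i_at was positive on both Pax6 homozygous hindbrain arrays, at 302.5 and 82.7, and negative on the other 6, and X83671cds_r_at was negative on 7 arrays. Neither exceeded noise on any array. They are of the types that the manufacturer marks as built from an incomplete or less selective choice of probes.

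Cryba4, an acidic member of the beta family whose gene lies next to that of Crybb1, was above noise on no array. Its probe set (AF013247_at) read 177.8 and 133.0 in Pax6 homozygous forebrain, against 466.0 and 75.7 in wild-type forebrain. In hindbrain it read 343.4 and 193.1 in the Pax6 homozygous group and 503.2 and 152.7 in the wild-type group. The 1st array was the higher of the pair in all 4 groups, and the genotypes overlapped in both parts. Its log2 differences between genotypes, -0.29 ± 1.01 in forebrain and -0.11 ± 1.01 in hindbrain, were smaller than their errors (limma, adjusted p = 1 for both).

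Crygd, a gamma-crystallin of lens fibre cells, was likewise near noise. The tested probe set (X57169_f_at), which the manufacturer marks as shared within a gene family, read 240.5 and 375.3 in Pax6 homozygous forebrain, against 327.6 and 396.4 in wild-type forebrain. The hindbrain arrays read 303.6 and 298.9 in the Pax6 homozygous group and 302.4 and 528.4 in the wild-type group. In each group the 2nd array alone exceeded noise, and the genotypes overlapped in both parts. The log2 difference was -0.26 ± 0.56 in forebrain and -0.41 ± 0.56 in hindbrain (limma, adjusted p = 1 for both). The second Crygd probe set (X57169_i_at) was negative on 6 arrays, as low as -1755.1 on a wild-type hindbrain array, and above noise on none.

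**Figure D2:**
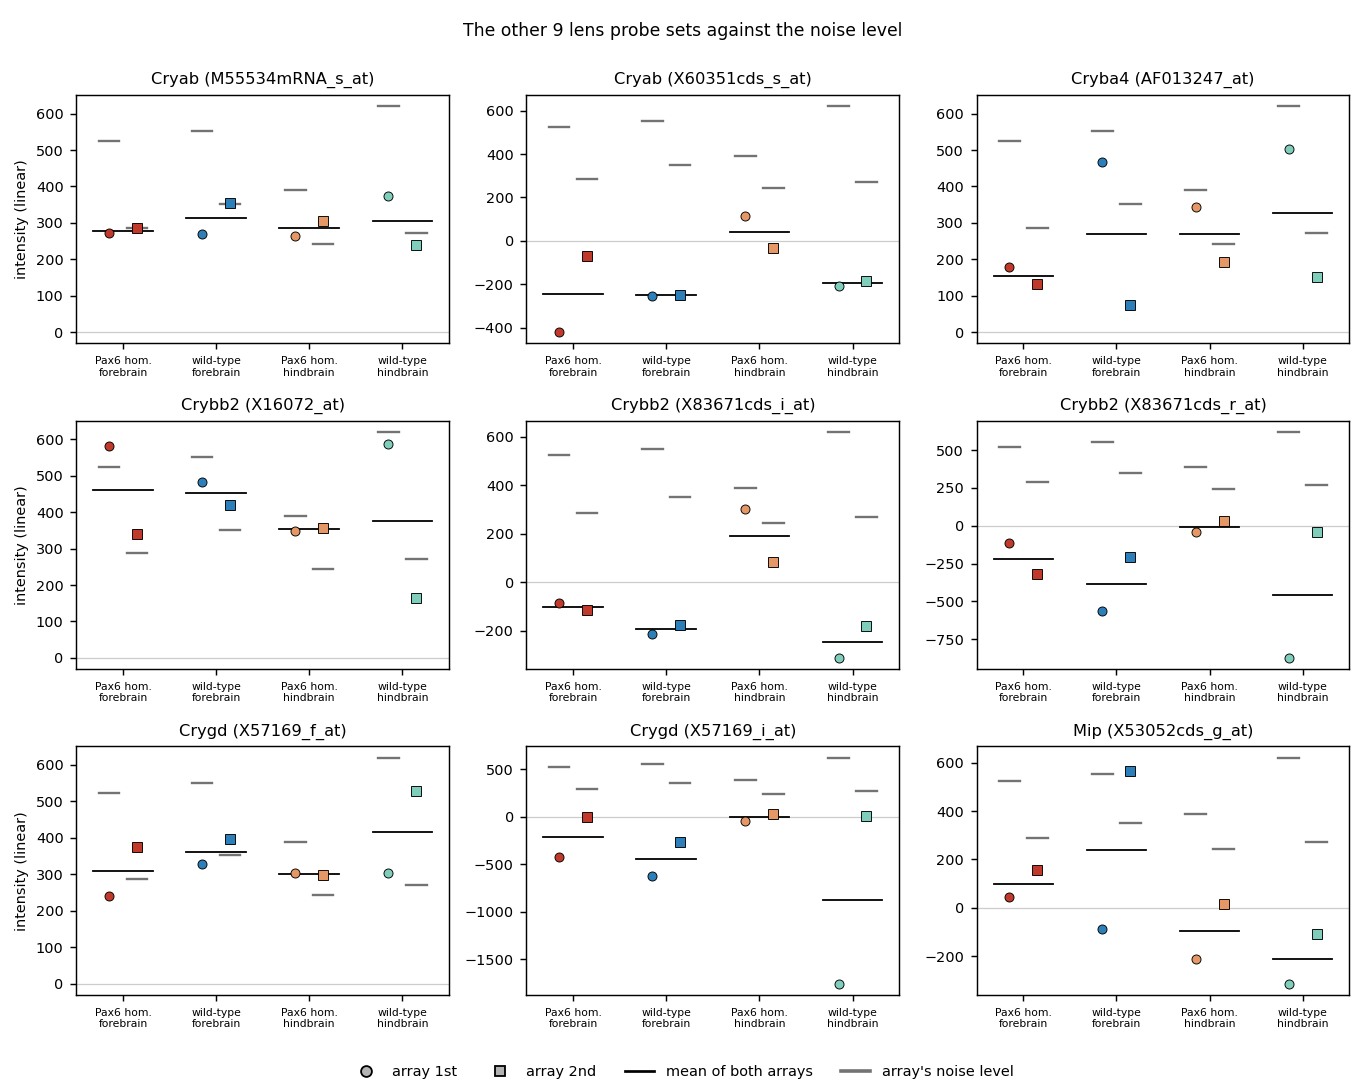
Intensity (linear) on each array for the 9 lens probe sets of Cryab, Cryba4, Crybb2, Crygd and the second of Mip, with symbols as for the 4 brighter ones and a light line at 0. Points lie at or under the grey noise marks on most arrays, and 5 of the 9 probe sets reach noise on no array.

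Mip, the water channel also known as aquaporin 0 that makes up much of the fibre cell membrane, had 2 probe sets that stood differently to noise, and which of them reports the transcript could not be settled from the files. The tested one, X53052cds_at, was above noise in every group and read 1546.6 and 1189.6 in Pax6 homozygous forebrain, against 1668.6 and 1448.9 in wild-type forebrain. Hindbrain values were 1862.4 and 1153.2 in the Pax6 homozygous group and 1691.5 and 880.4 in the wild-type group. The genotypes overlapped in both parts, and the 1st array was the higher of the pair in all 4 groups. The log2 difference was -0.20 ± 0.39 in forebrain (95% interval -1.10 to 0.70) and 0.26 ± 0.39 in hindbrain (-0.63 to 1.16), with a limma adjusted p of 1 for both. The forebrain means were 1368 ± 252 in Pax6 homozygous and 1559 ± 155 in wild-type tissue, and the hindbrain means were 1508 ± 501 in the Pax6 homozygous and 1286 ± 574 in the wild-type group (SD, n = 2 arrays each), so that no 2 groups differed beyond their spread.

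The second Mip probe set (X53052cds_g_at), taken from the same transcript sequence, was negative on 4 arrays and above noise on 1, a wild-type forebrain array at 566.2. In the first, the log2 difference between forebrain and hindbrain was -0.11 ± 0.39 in Pax6 homozygous embryos and 0.35 ± 0.39 in wild-type embryos (limma, adjusted p = 0.998 and 0.999), although the labels name eye primordia only in the forebrain part.

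Lim2, a fibre cell membrane protein of lens cell junctions, had 1 array far from the rest. Its probe set (S55224_s_at) read 476.2 and 423.4 in Pax6 homozygous forebrain, against 587.3 and 555.8 in wild-type forebrain. In the hindbrain part it read 760.2 and 677.8 in the Pax6 homozygous group and 2203.3 and 282.2 in the wild-type group. The forebrain genotypes did not overlap, with the Pax6 homozygous arrays lower, and the wild-type hindbrain arrays enclosed all other values. The forebrain means were 449.8 ± 37.3 in Pax6 homozygous and 572 ± 22.3 in wild-type tissue, and the hindbrain means were 719 ± 58.3 in the Pax6 homozygous and 1243 ± 1358 in the wild-type group (SD, n = 2 arrays each). In Pax6 homozygous embryos hindbrain lay above forebrain without overlap. The forebrain log2 difference was -0.35 ± 0.80 (limma, adjusted p = 1, 95% interval -2.18 to 1.48), a standard error that the wild-type hindbrain pair widens through the shared estimate of spread. The hindbrain difference of -0.14 ± 0.80 became -1.62 without the 2nd wild-type hindbrain array and 1.35 without the 1st.

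All 8 tested lens probe sets had a negative log2 difference in forebrain, with a median of -0.28, whereas 48.5% of all 5881 did, with a median of 0.01. The count of negative differences was 4 once the floor was raised to the pooled median, which put 3 at 0 and Crybb2 at 0.11. It was 7 with the asinh transform, 6 without the 1st wild-type forebrain array, when Cryba4 was at 1.02, and 7 without any other 1 of the forebrain arrays. For 6 of the 8 the difference was smaller than its standard error. With limma 0 of the 8 passed an adjusted p under 0.05, where 0.0170% of all tested probe sets did, and 2 of the 8 (Cryaa and Crybb3) had an unadjusted p under 0.05, where 2.92% did. Of all 13 lens probe sets, 3 (Cryaa, Crybb3 and Lim2) were without overlap and lower in Pax6 homozygous forebrain, with wild-type above noise on both arrays, where 5.45% of the 8740 were. The summed intensity of the 8 tested probe sets was 3587 to 5067 in Pax6 homozygous forebrain and 10500.3 to 10746 in wild-type forebrain, with 4416 to 5727 in Pax6 homozygous and 3277 to 6769 in wild-type hindbrain. Without Cryaa and Crybb3, left out here after their values were seen, the other 6 summed to 2747 to 3296 in Pax6 homozygous and 3252 to 3802 in wild-type forebrain, which overlap.

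In hindbrain 4 of the 8 differences were negative and 4 positive, with a median of 0.05. Again 0 of 8 passed with limma (0.0170% of all), and 1, Crybb3, had an unadjusted p under 0.05 (4.49% of all). Crybb3 was also the 1 of 13 lens probe sets that was without overlap and higher in Pax6 homozygous hindbrain (12.1% of all). In the interaction 0 of 8 passed (0% of all), and Cryaa and Crybb3 had an unadjusted p under 0.05 (1.90% of all).

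Between parts, 1 of 8 lens probe sets passed in wild-type embryos, where 0.782% of all tested did, and 2, Cryaa and Crybb3, had an unadjusted p under 0.05 (5.71% of all). The same 2 of 13 were without overlap and higher in wild-type forebrain (7.30% of all). In Pax6 homozygous embryos 0 of 8 passed (0.459% of all) and 0 had an unadjusted p under 0.05 (5.97% of all). There Crybb3 and Lim2 were without overlap and lower in forebrain than in hindbrain, against 12.1% of all probe sets. The genotype and region comparisons share arrays, so the wild-type forebrain values of Cryaa and Crybb3 enter both.

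**Figure D3:**
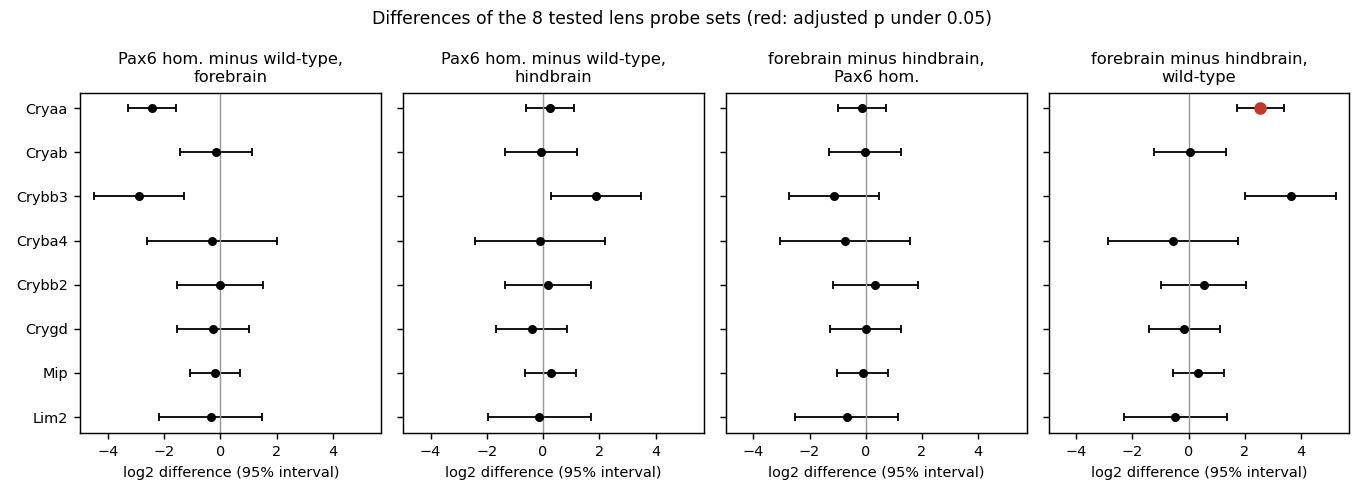
Log2 difference with its 95% interval (limma) for the 8 tested lens probe sets, from left to right between genotypes in forebrain and in hindbrain and between parts in Pax6 homozygous and in wild-type embryos. The red point, Cryaa in wild-type embryos at 2.55, is the 1 call with an adjusted p under 0.05, and the intervals of Cryaa and Crybb3 alone lie below 0 in the forebrain genotype panel.

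Most other lens genes on the array with a single symbol were too dim to measure. Of 19 listed lens genes 7 had a probe set with a single symbol, 3 were tested, and 0 passed in any comparison. Crybb1, Crygc and Lenep were above noise on no array. Cryba1, also not tested, exceeded noise with its probe set X15143cds_g_at on 1 array, a wild-type forebrain array at 439.2. The other wild-type forebrain array read 200.2, against 104.0 and 101.9 in Pax6 homozygous forebrain. In hindbrain it read 18.3 and 28.3 in the Pax6 homozygous and -78.8 and 75.3 in the wild-type group. The remaining Cryba1 probe sets were above noise on no array. A tested probe set with more than 1 gamma-crystallin symbol (M19357cds_f_at), which cannot be given to 1 gene, was above noise on all 8 arrays. It read 865.4 and 319.7 in Pax6 homozygous and 918.5 and 735.3 in wild-type forebrain, and 642.9 and 493.6 in Pax6 homozygous and 1121.7 and 338.8 in wild-type hindbrain, with the genotypes overlapping in both parts. Of the tested genes, Gja3, a gap junction protein of lens fibres, averaged 399 ± 86.3 in Pax6 homozygous and 488 ± 15.8 in wild-type forebrain (SD, n = 2 arrays each), with a log2 difference of -0.31 ± 0.57 (limma, adjusted p = 1). Grifin, a galectin-related lens protein, and Bfsp1, a lens intermediate filament protein, differed by 0.50 ± 0.87 and 0.45 ± 0.96 (limma, adjusted p = 1 for both). Gja3 exceeded noise on 5 of the 8 arrays, Grifin on 4 and Bfsp1 on 1. In forebrain Bfsp1 read 23.8 to 142.6, under noise on every array, so its difference there compares dim values.

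Of 20 listed transcription factors of the lens and eye 5 had a probe set and 4 were tested, with 3 negative forebrain differences and 0 calls between genotypes. Pitx3, a homeobox gene needed for lens development, read 770.0 and 1063.3 in Pax6 homozygous forebrain, against 2259.2 and 1772.7 in wild-type forebrain. In hindbrain it read 2416.8 and 755.3 in the Pax6 homozygous and 2409.3 and 1249.3 in the wild-type group, a range that takes in the wild-type forebrain values. The forebrain genotypes did not overlap, with a log2 difference of -1.15 ± 0.55 (limma, unadjusted p = 0.0671, adjusted p = 1). Maf, whose core was searched above, differed by -0.21 ± 0.31 (limma, adjusted p = 1). Foxe3, a factor of the lens epithelium, was above noise on no array. Among other small heat shock proteins, Hspb1 and Hspb6, the relatives of the alpha-crystallins that were tested, differed by 0.03 ± 0.29 and 0.08 ± 0.39 in forebrain (limma, adjusted p = 1 for both). The 8 tested aquaporins and relatives of the membrane proteins had 3 negative and 5 positive forebrain differences and 0 calls.

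Markers of other tissues in the dissections were set beside these values. The retina and pigment epithelium markers on the array, Rpe65 and Sag, were above noise on no array. All 8 tested blood markers had negative forebrain differences, with a median of -0.45, 3 of them (Hbg1, Hbb-b1 and Hbb, globin chains) at an unadjusted p under 0.05 and 0 passing the adjusted threshold. Their summed intensity was 150280 to 153398 in Pax6 homozygous forebrain and 179096 to 193281 in wild-type forebrain. In hindbrain the sum was 141580 to 144668 in the Pax6 homozygous and 158033 to 171386 in the wild-type group. There 6 of the 8 differences were negative and 2 positive, with a median of -0.22. Heart and skeletal muscle markers summed to 5611 to 9591 in Pax6 homozygous forebrain and 32752 to 37611 in Pax6 homozygous hindbrain, and to 6517 to 10481 in wild-type forebrain and 32931 to 36983 in wild-type hindbrain. The cardiac actin gene Actc1 was at 13746 to 16999.6 in hindbrain and above noise on no forebrain array. The part of the blood difference and of the tissue content in the lens results was not tested.

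The genes most like each of the brighter members were found by Pearson correlation of log2 intensity over the 8 arrays, among 4845 tested probe sets with a single symbol. The 8 points share the authors' scaling and come in pairs of a group, and for Cryaa and Crybb3 the wild-type forebrain pair stands apart from the other 6, so r describes likeness only. Aldh1a1, an aldehyde dehydrogenase that makes retinoic acid, was nearest to Cryaa (r = 0.96). It averaged 1577 ± 452 in Pax6 homozygous and 4789.6 ± 404 in wild-type forebrain (SD, n = 2 arrays each). Its hindbrain means were 1480.9 ± 406 in the Pax6 homozygous and 1859 ± 265 in the wild-type group. Its wild-type forebrain arrays, like those of Cryaa, lay above the other 6. Next came Mst1, which was above noise on no array, then Synpo, Pold1 and Abcc6, with r from 0.90 to 0.87. Crybb3 was 10th, with r = 0.84, and the next member, Mip, was 497th.

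The genes nearest to Crybb3 were Efemp1, Tpp2, Chchd1, Cox5a and Adarb1 (r from 0.97 to 0.90). The nearest to Crybb2 were Myh6, Or1f19e, Csf1, Slc25a10 and Add1 (r from 0.99 to 0.94). For Mip they were Ly6c, Urgcp, Gria4, Ptpre and Wdr62 (r from 0.99 to 0.94), and for Lim2 Myl2, Dpys, Acvr1b, Rbpms and Map2k1 (r from 0.95 to 0.90). Ly6c was higher on the 1st than on the 2nd array in every group, as Mip was. Myl2, Add1 and Gria4, like Mst1, were above noise on no array. Or1f19e and Map2k1 were above it on 1 array each and Ptpre on 2.

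**Figure D4:**
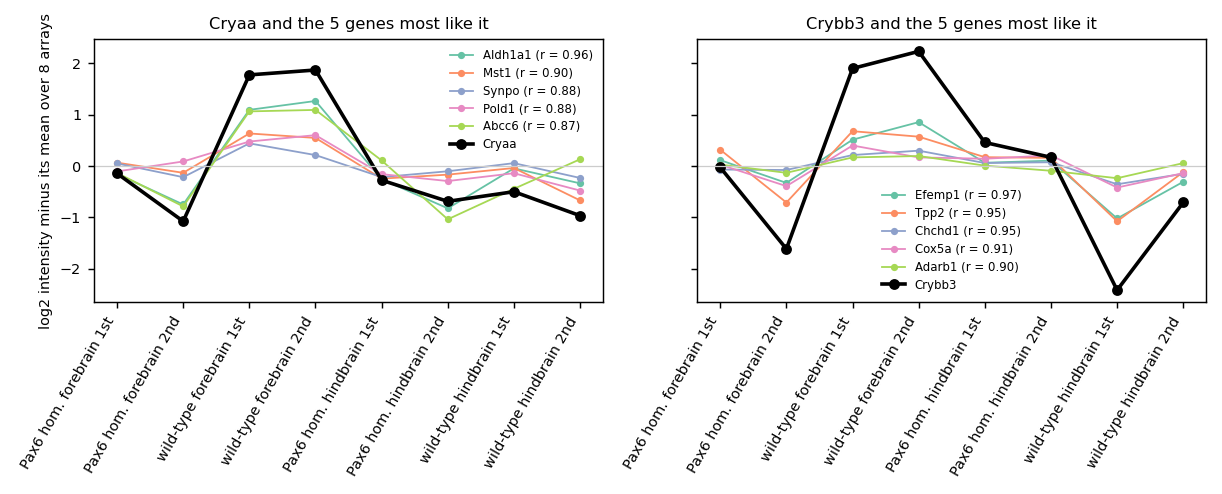
Log2 intensity of Cryaa (left) and Crybb3 (right), in black, and of the 5 genes most like each, in colour, minus each gene's mean over the 8 arrays on the x axis. All 5 genes most like Cryaa are, as Cryaa is, highest on both wild-type forebrain arrays, and Mst1, at r = 0.90, was above noise on no array.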

How the data were processed

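Intensities were measured on 8 Affymetrix rat arrays. The authors deposited 1 linear intensity per probe set and array. The software and scaling behind it were not given in the sources used here. Gene symbols came from the platform annotation, and all 13 lens probe sets matched RefSeq genes by Entrez identifier with 0 symbols changed. Deposited intensities were raised to a floor, the pooled 25th percentile (45.9), and converted to log2. The test took the 5881 probe sets that exceeded the pooled 40th percentile (255) on 2 arrays or more, with 59 controls left out. A model of 4 group means over all 8 arrays was fitted in limma 3.58.1 (R 4.3.3) with eBayes and an intensity trend. Tests were two-sided, with Benjamini-Hochberg adjustment over the tested probe sets. The sign of a difference is Pax6 homozygous minus wild-type, or forebrain minus hindbrain. For a fold with dim arrays set at noise, each array of the dimmer group took its noise level or its own value, whichever was higher. Any other fold is 2 to the power of the log2 difference. The procedure was run on simulated log2 values with known changes and normal scatter. Those values had no array-number effect and no floor, so the run does not cover these features of the data. The number of arrays limits the precision.

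All probe sets of the 8 genes are named. From the other gene lists up to 4 tested genes with the smallest forebrain p were eligible, and for each brighter gene the 5 genes with the most similar pattern. The genes and lists were chosen with earlier results of these data known. Genes of the lists that were on no probe set with a single symbol were not analysed here. The listed enzymes with crystallin names (4 genes) had 0 probe sets. Alternatives were another floor, an asinh transform, no filter, no trend, quantile normalization, a replicate block, separate fits and leaving out each array.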

Additional observations from a re-analysis of the deposited data

Results flagged for a closer look

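Crybb3 (M15901mRNA_s_at) stood out because its genotype difference ran opposite ways in the parts without overlap of arrays. Both Pax6 homozygous arrays were below both wild-type arrays in forebrain and above both in hindbrain. The difference between these differences was -4.76 ± 1.00 on the log2 scale, and as an interaction it did not pass with limma (adjusted p = 0.9995, and 0.0943 to 1 over 14 alternatives). It rests on dim values, since 3 of the 8 arrays were under noise, both of Pax6 homozygous forebrain and 1 of wild-type hindbrain. A floor at the pooled median gave -2.26.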

How the results depend on the processing

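The count of lens probe sets past the threshold between wild-type forebrain and hindbrain, 1 as reported (Cryaa), was 2 with the asinh transform, 0 without the filter and 0 without the intensity trend, and it ranged from 0 to 1 when each array was left out. A floor at the pooled median also gave 1, but the probe set was Crybb3. In the other comparisons the count of lens probe sets was 0 in every alternative run. Over all probe sets tested, the counts between genotypes were 0 to 5 in forebrain (1 as reported) and 1 to 22 in hindbrain (1), 0 to 13 in the interaction (0), and between parts 21 to 67 in wild-type (46) and 14 to 65 in Pax6 homozygous embryos (27). Deviations of same-numbered arrays correlated at 0.275 to 0.465, but with 2 numbers and no word on what they mark they were not taken as pairs. With a replicate block the counts of lens probe sets were 0 between genotypes in each part, 1 in wild-type and 0 in Pax6 homozygous embryos between parts, and over all probe sets 67 and 65 between parts. Cryaa then had an adjusted p of 0.0572 between genotypes in forebrain. With noise at the 1st and the 10th percentile, lens probe sets above it on both arrays numbered 1 and 6 in Pax6 homozygous forebrain, 3 and 7 in the wild-type forebrain, then 2 and 8 in Pax6 homozygous hindbrain and 0 and 6 in wild-type hindbrain. Dim signal limits Cryab, Cryba4, Crybb2 and Crygd, whose tested probe sets exceeded noise on at most 4 of the 8 arrays.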
